A study of Atriplex lentiformis with 8 samples.

Results

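The AP2/ERF and DREB transcription factors of quailbush (Atriplex lentiformis) leaves were compared between 2 growth temperatures. Members were the assembled transcripts whose best Arabidopsis protein match carries a description of this family (an integrase-type DNA-binding protein, an ERF domain protein, an ethylene response factor or element binding protein, a DREB protein or an AINTEGUMENTA-like protein). This found 48 of 46492 transcripts, matched to 37 of the 12468 Arabidopsis loci with a match. Of these, 44 transcripts at 35 loci matched loci of the family itself. The other 4 entered through words of their description: 3 match DRIP2, a ubiquitin ligase named for its binding to DREB2A, and 1 matches AT4G20880, described as an ethylene-regulated nuclear protein (ERT2).

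Leaf RNA came from 8 libraries, 4 from plants of a hot chamber (day 43 °C, night 30 °C) and 4 from plants of a cool chamber (day 23 °C, night 18 °C). Days were 16 hours long for all plants, whose age or time in the chamber is labelled as 8 weeks. The labels also give an 18:3 lipid phenotype for the hot leaves and a 16:3 lipid phenotype for the cool leaves. Each temperature had a growth chamber of its own, so chamber and temperature cannot be told apart. The comparison asks which leaf transcripts differ between plants grown hot and plants grown cool. The leaf label was checked on 3 photosynthesis genes, which were all listed well above 0 and all called lower at 43 °C. RBCS1A, a small subunit of Rubisco, had 3154 FPKM at 43 °C against 3882 FPKM at 23 °C. CAB1, a light-harvesting protein, had 824 FPKM at 43 °C against 5298 FPKM at 23 °C, and AT5G38410, another Rubisco small subunit, had 37.0 FPKM at 43 °C against 70.3 FPKM at 23 °C.

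FPKM is a count of fragments scaled to transcript length and sequencing depth. The table holds the authors' mean over the libraries of each temperature, so no FPKM below has an SD and no read depth is known. Rises and falls at 43 °C are those with an adjusted p below 0.05 in the authors' deposited table. Folds are ratios of the mean FPKM values. Calls were also read with the 2 FPKM columns scaled to equal totals, which adds 0.25 to every log2 fold change, and after median centring, which takes off the median of all transcripts (0.10). Genes are named after their best Arabidopsis match, which does not show orthology, by a symbol the table gives. Prefixes for the species are left off and other spellings are noted. Where the table gives no symbol, the locus is given. Groups within the family were assigned by Arabidopsis locus from background knowledge. In bulk leaf RNA, fewer cells of a type and less RNA per cell cannot be told apart.

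Proteins of this family share the AP2 domain, which binds short DNA elements in front of target genes. DREB proteins bind the dehydration-responsive element and are known for switching on genes of cold, drought and heat tolerance. ERF proteins bind the GCC box of defence genes and act at the end of the ethylene and jasmonate pathways, some as activators and some as repressors. Members with a pair of AP2 domains act in development, in floral identity, organ growth and seed oil synthesis.

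All 4 transcripts of ERF group IX, whose Arabidopsis members switch on defence genes, were 4.19- to 28.1-fold lower at 43 °C, and most other members that changed rose. Of the 48 members, 17 rose, 7 fell and 24 did not pass. Among all transcripts 20.7% were called higher and 17.8% were called lower, against 35.4% and 14.6% of the members. Of the members, 11 rose and 6 fell by at least 2-fold, as did 15.2% and 10.6% of all transcripts. The median log2 fold change in the authors' deposited table was 0.53 for the members and 0.10 for all transcripts. No member was listed at 0 FPKM at either temperature.

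**Figure D1:**
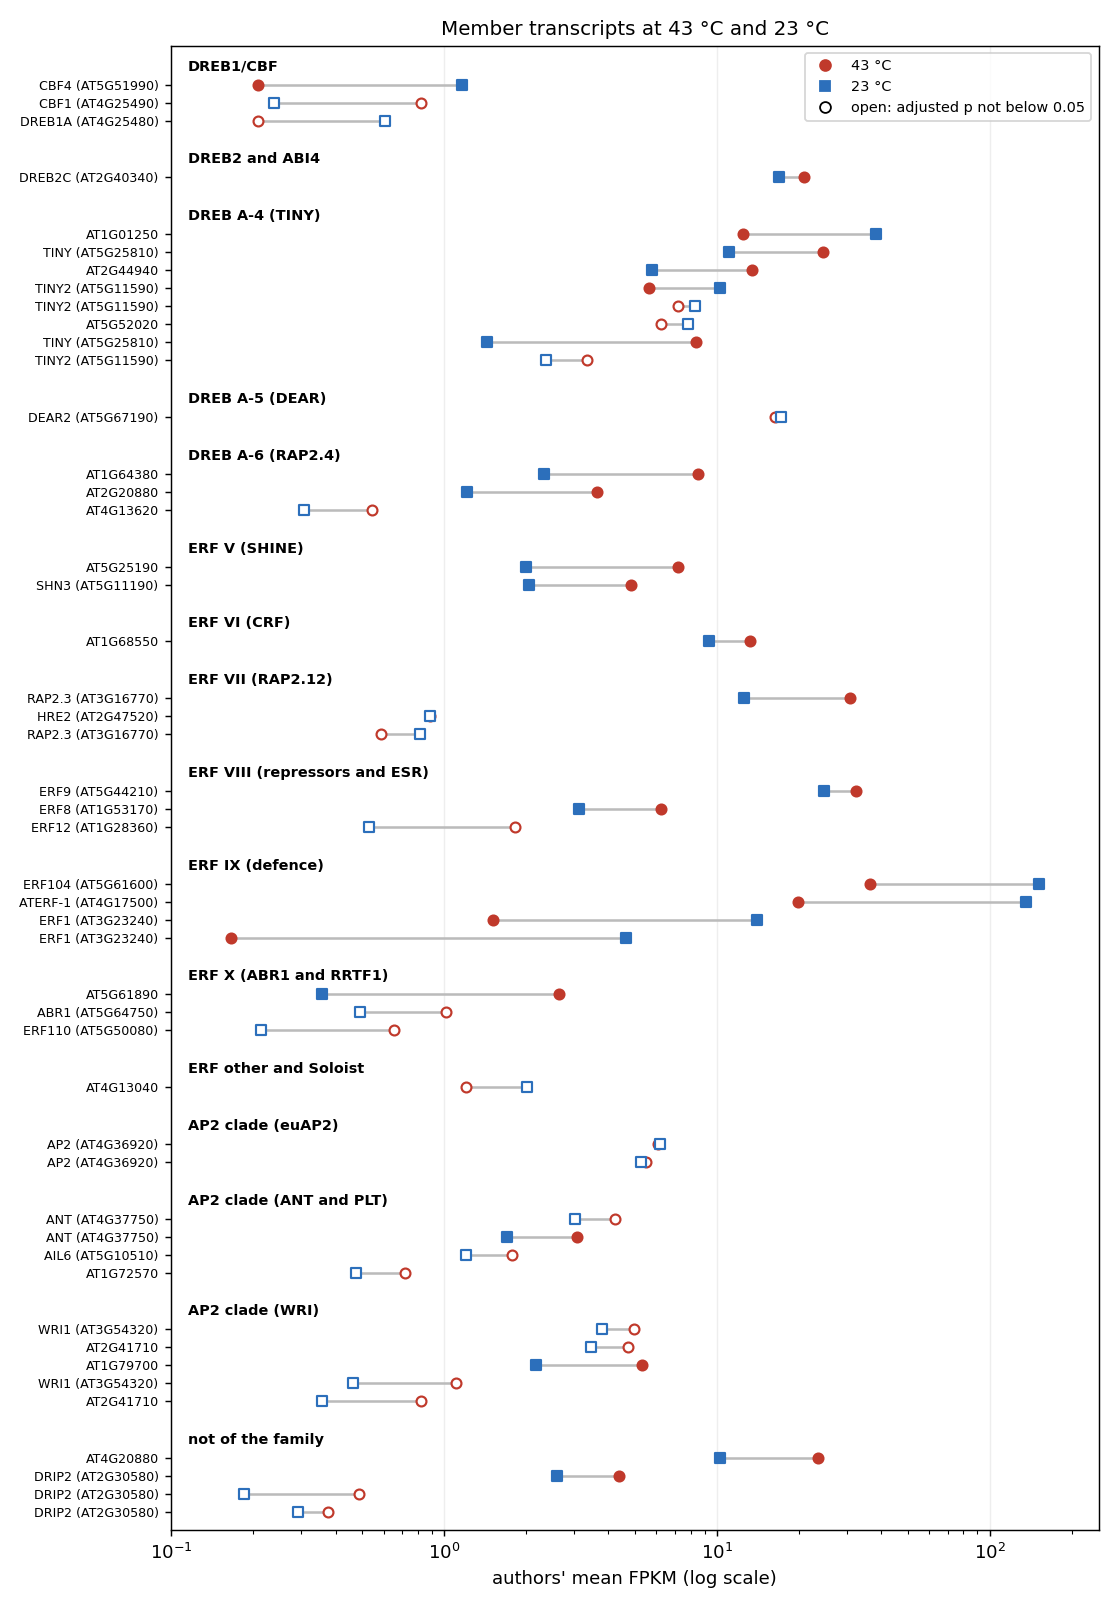
Authors' mean FPKM (log axis) of each of the 48 member transcripts, ordered by group and then by abundance. Red circles give 43 °C, blue squares 23 °C, and open symbols mark transcripts whose adjusted p was not below 0.05. All 4 transcripts of ERF group IX lie lower at 43 °C.

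ERF104 (AT5G61600) was the most abundant member at both temperatures. Its Arabidopsis match is a defence activator that is a substrate of a MAP kinase. It had 36.2 FPKM at 43 °C against 152 FPKM at 23 °C, 4.19-fold lower in the hot leaves. Its log2 fold change in the authors' deposited table was -2.07, with an adjusted p of 5.3e-131. Among all 46492 transcripts it stood at rank 2288 at 43 °C and rank 491 at 23 °C. ATERF-1 (AT4G17500), an activator that binds the GCC box, had 19.8 FPKM at 43 °C against 136 FPKM at 23 °C. It was 6.87-fold lower, with an adjusted p of 9.23e-208 in the authors' deposited table. Among the members it ranked seventh at 43 °C and second at 23 °C.

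ERF1 (AT3G23240), which in Arabidopsis joins the ethylene and jasmonate signals to activate defence genes, had 2 transcripts that both fell. The more abundant had 1.505 FPKM at 43 °C against 14.0 FPKM at 23 °C, 9.28-fold lower in hot leaves. The other had 0.165 FPKM at 43 °C against 4.64 FPKM at 23 °C. Its log2 fold change of -4.72 in the authors' deposited table was the lowest of all members and stood at percentile 1.49 of all transcripts. The 2 transcripts come from different assembly components, and summed they gave 1.67 FPKM at 43 °C against 18.6 FPKM at 23 °C, 11.1-fold lower.

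These 4 transcripts of group IX held most of the members' FPKM at 23 °C but not at 43 °C. They summed to 57.7 FPKM at 43 °C against 306 FPKM at 23 °C, which is 16.0% of the members' summed FPKM at 43 °C and 57.6% at 23 °C. The 48 members together summed to 360.4 FPKM at 43 °C against 532 FPKM at 23 °C. Without group IX, a subset set aside after its values were seen, the other 44 summed to 303 FPKM at 43 °C against 226 FPKM at 23 °C. The sum of these 44 was thus higher at 43 °C, with a ratio of 1.34, and 17 of them rose and 3 fell. In the unscaled FPKM, that direction turned when the family was taken by a list of Arabidopsis loci, which adds RAP2.2 and RAV1 (described below). By that list, the 62 transcripts outside group IX summed to 706 FPKM at 43 °C against 776 FPKM at 23 °C, a ratio of 0.91, while 27 of them rose and 7 fell. With group IX included, the 66 transcripts of that list summed to 764 FPKM at 43 °C against 1083 FPKM at 23 °C. Group IX, with 306 FPKM at 23 °C, thus did not hold most of this wider sum. The summed FPKM of all transcripts had a ratio of 0.84, and both 1.34 and 0.91 lie above it. These sums were not scaled to equal totals.

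**Figure D2:**
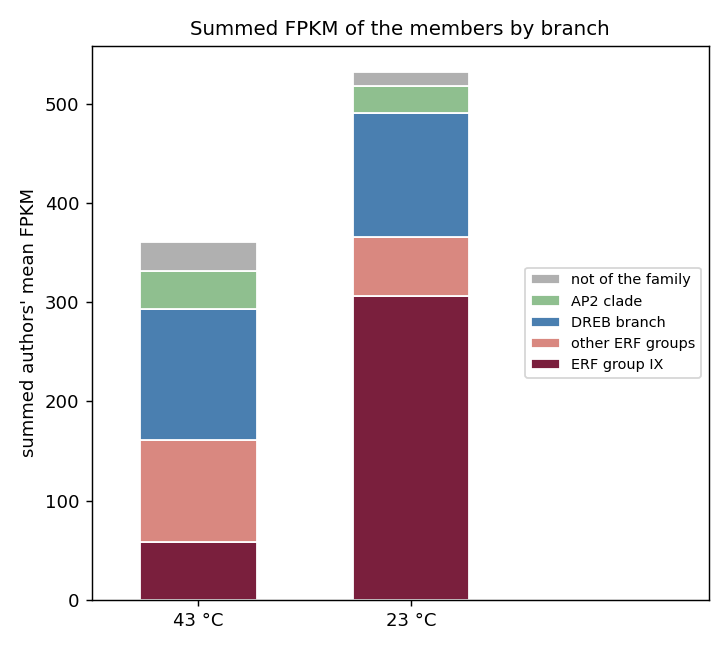
Summed authors' mean FPKM of the members at 43 °C (left) and 23 °C (right), stacked by branch of the family. ERF group IX fills 57.7 FPKM of the 43 °C bar and 306 FPKM of the 23 °C bar, and the DREB branch fills 132 and 125 FPKM. Family loci that the search words miss are not drawn.

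The order of the members by level differed between the temperatures. At 43 °C ERF104 (36.2 FPKM) was followed by ERF9 at 32.4 FPKM, RAP2.3 at 30.6 FPKM and a TINY transcript at 24.6 FPKM. At 23 °C ERF104 and ATERF-1 stood apart among the members, together 54.1% of the members' summed FPKM, and the third, AT1G01250, had 38.2 FPKM. The 2 highest members at 43 °C held 19.0% of the sum. This order holds for the members only. Among family transcripts that the search words miss, RAV1 had 144 FPKM and a RAP2.2 transcript 163 FPKM at 23 °C. A RAP2.4 transcript had 127 FPKM at 43 °C, above ERF104. The rarest members mostly did not pass. Of the 13 members with a mean of the 2 FPKM values under 1, none rose, 1 fell and 12 did not pass. Of all transcripts that rare, 16.8% were called higher and 8.13% lower. Among the 18 members with a mean of at least 5 FPKM, 8 rose and 5 fell, or 44.4% and 27.8%. All transcripts of that abundance had 26.2% called higher and 35.2% called lower.

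**Figure D3:**
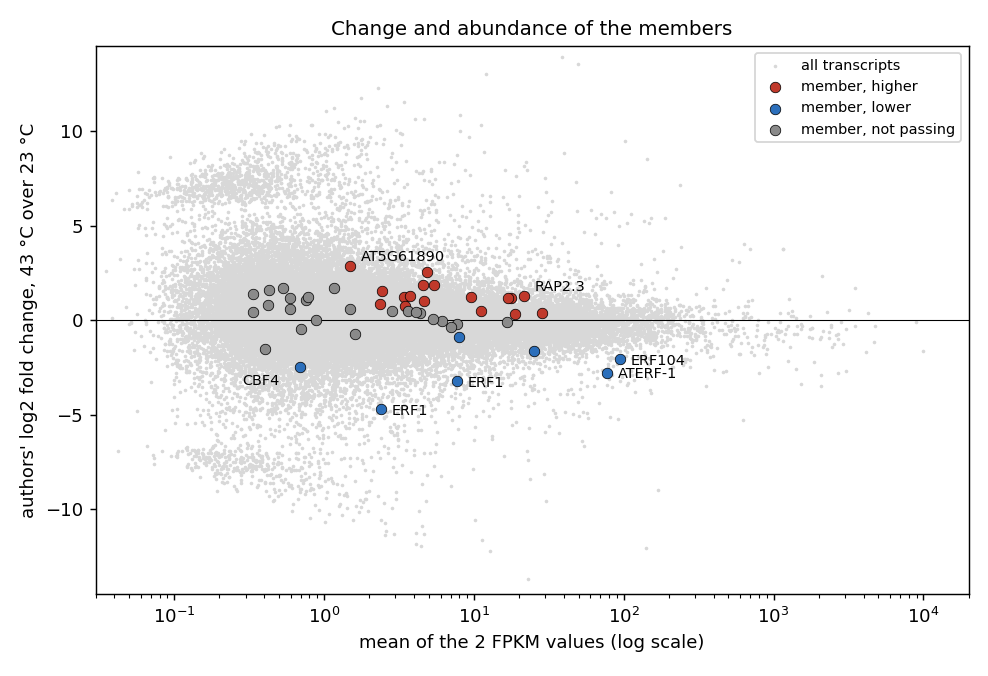
Authors' log2 fold change of 43 °C over 23 °C against the mean of the 2 FPKM values (log axis). Grey points are all 46492 transcripts, and large points are the 48 members, red where higher, blue where lower and grey where the adjusted p was not below 0.05. The 4 transcripts of group IX lie below a log2 fold change of -2, and AT5G61890 has the highest value of the members, 2.85.

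The whole ERF branch had 7 risen and 4 fallen transcripts among its 17 members, or 41.2% and 23.5%. Of all transcripts 20.7% were called higher and 17.8% lower. All 4 falls were in group IX, which was set aside after its values were seen. The 13 members outside it held the 7 rises (53.8%), and their lack of falls follows from that choice. By the list of family loci, which adds RAP2.2, the branch outside group IX had 11 rises and 3 falls among 21 transcripts. The 3 falls are those of RAP2.2, and the 21 summed to 257 FPKM at 43 °C against 343 FPKM at 23 °C. RAP2.3 (AT3G16770), a group VII factor whose protein in Arabidopsis is broken down in the presence of oxygen, rose to 30.6 FPKM at 43 °C, against 12.6 FPKM at 23 °C (adjusted p = 1.81e-20 in the authors' deposited table). Its second transcript did not pass, at 0.588 FPKM at 43 °C against 0.818 FPKM at 23 °C. HRE2 (AT2G47520), a hypoxia-induced relative in the same group, had 0.885 FPKM at both temperatures. Its match was weak (E value of 1.6e-07, where lower is better). It carries the same assembly number as the second RAP2.3 transcript, so both may be pieces of a single gene.

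Group VIII factors carry a repressor motif, and ERF9 and ERF8 rose. ERF9 (AT5G44210) had 32.4 FPKM at 43 °C against 24.7 FPKM at 23 °C, 1.31-fold higher, a call that was lost after median centring (log2 value 0.29). ERF8 (AT1G53170), listed in the table first as ATERF-8, had 6.21 FPKM at 43 °C against 3.11 FPKM at 23 °C, 2.0-fold higher. ERF12 (AT1G28360) did not pass, at 1.81 FPKM at 43 °C against 0.532 FPKM at 23 °C. With equal totals of the 2 FPKM columns ERF12 passed as higher.

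Both members of group V, which in Arabidopsis includes regulators of cuticle wax, rose. The transcript matched to AT5G11190, listed as SHN3, had 4.82 FPKM at 43 °C against 2.05 FPKM at 23 °C, 2.36-fold higher. AT5G25190 had 7.22 FPKM at 43 °C against 1.99 FPKM at 23 °C, 3.64-fold higher. In group VI, which holds the cytokinin response factors, the single member AT1G68550 rose to 13.2 FPKM at 43 °C, against 9.31 FPKM at 23 °C.

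Group X held the member with the highest log2 fold change, 2.85 in the authors' deposited table. This was AT5G61890, with 2.65 FPKM at 43 °C against 0.357 FPKM at 23 °C, a 7.40-fold ratio on a low base. ABR1 (AT5G64750), which in Arabidopsis represses the response to abscisic acid, did not pass at 1.02 FPKM at 43 °C against 0.490 FPKM at 23 °C. ERF110 (AT5G50080) did not pass at 0.652 FPKM at 43 °C against 0.212 FPKM at 23 °C, and passed as higher with equal totals. AT4G13040, which stands outside the numbered groups, did not pass at 1.2 FPKM at 43 °C against 2.01 FPKM at 23 °C.

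The DREB branch had 16 transcripts at 13 loci. Against 20.7% higher and 17.8% lower of all transcripts, 6 of the branch rose (37.5%), 3 fell (18.8%) and 7 did not pass. Its members summed to 132 FPKM at 43 °C against 125 FPKM at 23 °C, and single members moved both ways. The sum depended on the search words, which miss RAP2.4: with it, the 19 transcripts of the branch summed to 349 FPKM at 43 °C against 239 FPKM at 23 °C, 1.46-fold higher. A single RAP2.4 transcript of 585 bases, with a weak match, held 127 FPKM of that sum at 43 °C and 97.1 FPKM at 23 °C. The largest group was that of TINY, whose Arabidopsis members slow growth when overproduced. Of its 8 transcripts, 3 rose, 2 fell and 3 did not pass.

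TINY itself (AT5G25810), listed as tny, had 2 transcripts that both rose. The more abundant had 24.6 FPKM at 43 °C against 11.02 FPKM at 23 °C, 2.23-fold higher (adjusted p = 3.01e-19 in the authors' deposited table). The other had 8.37 FPKM at 43 °C against 1.44 FPKM at 23 °C, 5.82-fold higher. Together they gave 32.9 FPKM at 43 °C against 12.5 FPKM at 23 °C. AT2G44940 of the same group rose to 13.5 FPKM at 43 °C, against 5.76 FPKM at 23 °C.

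AT1G01250, also of the TINY group, went the other way. It had 12.5 FPKM at 43 °C against 38.2 FPKM at 23 °C, 3.07-fold lower (adjusted p = 2.39e-36 in the authors' deposited table). TINY2 (AT5G11590) fell in the transcript with the highest mean of both temperatures, with 5.62 FPKM at 43 °C against 10.3 FPKM at 23 °C. Its other transcripts did not pass, 1 at 7.22 FPKM at 43 °C against 8.34 FPKM at 23 °C, and 1 at 3.34 FPKM at 43 °C against 2.35 FPKM at 23 °C. They are 570 and 333 bases long, against 1348 bases for the one that fell. Summed, TINY2 had 16.2 FPKM at 43 °C against 21.0 FPKM at 23 °C. AT5G52020 did not pass, at 6.21 FPKM at 43 °C against 7.85 FPKM at 23 °C, but was called lower after median centring (log2 value -0.45).

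The CBF factors (DREB1), which in Arabidopsis switch on the cold acclimation genes, were scarce at both temperatures. Their 3 transcripts summed to 1.24 FPKM at 43 °C against 2.01 FPKM at 23 °C. CBF4 (AT5G51990) fell, with 0.2075 FPKM at 43 °C against 1.17 FPKM at 23 °C, 5.63-fold lower (adjusted p = 0.00564 in the authors' deposited table). It was the only member with a mean under 1 FPKM that passed. DREB1A (AT4G25480, also CBF3) did not pass, at 0.2075 FPKM at 43 °C against 0.605 FPKM at 23 °C. Both are variants of a single assembly component, so they may stand for a single gene of this shrub. CBF1 (AT4G25490) did not pass, at 0.825 FPKM at 43 °C against 0.237 FPKM at 23 °C (adjusted p = 0.0576 in the authors' deposited table), and passed as higher with equal totals. The group thus had values on both sides.

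DREB2C (AT2G40340) was the only member of the DREB2 group, whose Arabidopsis members activate heat and drought genes. It had 20.9 FPKM at 43 °C against 16.9 FPKM at 23 °C, 1.24-fold higher. The adjusted p was 0.0309 in the authors' deposited table, and the call was lost at a threshold of 0.01 and after median centring. It was sixth among the members at both temperatures. DEAR2 (AT5G67190), a DREB protein with a repressor motif, did not pass, at 16.3 FPKM at 43 °C against 17.1 FPKM at 23 °C. An interval for its log2 fold change, approximated from the p-value in the authors' deposited table as a normal test would give it, ran from -0.27 to 0.12.

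In the RAP2.4 group of DREB proteins, AT1G64380 rose to 8.51 FPKM at 43 °C, against 2.33 FPKM at 23 °C. AT2G20880 rose to 3.62 FPKM at 43 °C, against 1.22 FPKM at 23 °C. The third, AT4G13620, did not pass at 0.542 FPKM at 43 °C against 0.307 FPKM at 23 °C. All were thus nominally higher in hot leaves, and the sum of the 3 was 3.29-fold higher.

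Most developmental members with a pair of AP2 domains did not pass. Of 11 transcripts 2 rose, none fell and 9 did not pass. Of all 46492 transcripts, 28583 did not pass, while 20.7% were called higher and 17.8% lower. The count depended on the search words, which miss the 10 transcripts of RAP2.7 (described below), 5 of them risen. By the list of family loci, which adds RAP2.7, 7 of 21 transcripts rose, none fell and 14 did not pass. AP2 (AT4G36920), which in Arabidopsis sets floral organ identity, had 2 long transcripts of 4771 and 4786 bases. The first had 6.08 FPKM at 43 °C against 6.16 FPKM at 23 °C, and the second 5.48 FPKM at 43 °C against 5.28 FPKM at 23 °C. The approximated interval for the log2 fold change in the authors' deposited table ran from -0.25 to 0.19 for the first and from -0.19 to 0.29 for the second. With equal totals the second passed as higher (log2 value 0.30).

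ANT (AT4G37750), a promoter of cell proliferation in young organs, had 4.24 FPKM at 43 °C against 3.01 FPKM at 23 °C in its most abundant transcript, which did not pass. Its second transcript rose to 3.06 FPKM at 43 °C, against 1.70 FPKM at 23 °C (in the authors' deposited table the adjusted p was 0.0371), a call lost after median centring. AIL6 (AT5G10510) did not pass at 1.78 FPKM at 43 °C against 1.2 FPKM at 23 °C, nor did AT1G72570 at 0.718 FPKM at 43 °C against 0.475 FPKM at 23 °C. All 4 transcripts of this group were nominally higher in hot leaves.

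WRI1 (AT3G54320), the activator of fatty acid synthesis and plastid glycolysis in Arabidopsis seeds, did not pass. Its main transcript had 4.95 FPKM at 43 °C against 3.79 FPKM at 23 °C, and passed as higher with equal totals (log2 value 0.63). A second WRI1 transcript did not pass at 1.10 FPKM at 43 °C against 0.465 FPKM at 23 °C. AT1G79700, of the same group, rose to 5.30 FPKM at 43 °C, against 2.18 FPKM at 23 °C, 2.43-fold higher. AT2G41710 did not pass in either transcript, the more abundant having 4.74 FPKM at 43 °C against 3.45 FPKM at 23 °C, and the other 0.823 FPKM at 43 °C against 0.357 FPKM at 23 °C. With equal totals its main transcript passed as higher.

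The members that are no AP2/ERF proteins rose or did not pass. AT4G20880 (ERT2) rose to 23.5 FPKM at 43 °C, against 10.3 FPKM at 23 °C. DRIP2 (AT2G30580), which in Arabidopsis marks DREB2A for degradation, rose in its main transcript to 4.36 FPKM at 43 °C, against 2.59 FPKM at 23 °C. Its other transcripts did not pass, at 0.4875 and 0.375 FPKM at 43 °C and 0.185 and 0.2925 FPKM at 23 °C. Without these 4 transcripts the counts were 15 higher and 7 lower of 44.

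Counted by locus, with the FPKM of all its transcripts summed, 19 of the 37 loci were at least 1.5-fold higher and 7 at least 1.5-fold lower at 43 °C. Over all matched loci 22.2% were higher and 18.8% lower by that measure. The median ratio of 43 °C over 23 °C was 1.51 for the member loci and 1.01 for all loci. No member locus had transcripts called in both directions, although 9 loci had more than 1 transcript. By the most abundant transcript of each locus, 15 loci rose, 6 fell and 16 did not pass.

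Some loci of the family have descriptions that the search words miss, and 22 transcripts at 8 further loci were found by a list of 146 Arabidopsis family loci. Of these 12 rose, 4 fell and 6 did not pass. RAV1, a growth regulator with an AP2 and a B3 domain, had 26.5 FPKM at 43 °C against 144 FPKM at 23 °C, 5.42-fold lower, close in level and fold to ATERF-1. RAP2.2, of the same group VII as RAP2.3, fell in all 3 transcripts, with a sum of 132 FPKM at 43 °C against 273 FPKM at 23 °C. RAP2.3 and RAP2.2 thus moved in opposite directions, and the sum over RAP2.2 was the larger at both temperatures.

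RAP2.4, of the group of AT1G64380 above, rose in all 3 transcripts and summed to 217 FPKM at 43 °C against 113 FPKM at 23 °C. The most abundant of these had 127 FPKM at 43 °C against 97.1 FPKM at 23 °C, 1.3-fold higher. It is 585 bases long and has a weak match (E value of 7.9e-08). The next had 85.4 FPKM at 43 °C against 14.0 FPKM at 23 °C, 6.09-fold higher. Both CRF4 transcripts rose, with a sum of 13.0 FPKM at 43 °C against 4.12 FPKM at 23 °C, while CRF2 did not pass at 7.22 FPKM at 43 °C against 6.59 FPKM at 23 °C. RAP2.7 (TOE1), a repressor of flowering, rose in 5 of 10 transcripts and summed to 35.4 FPKM at 43 °C against 23.5 FPKM at 23 °C. The transcript with the highest mean of both temperatures did not pass at 9.14 FPKM at 43 °C against 11.8 FPKM at 23 °C, and the next, with 11.2 FPKM at 43 °C against 4.83 FPKM at 23 °C, rose. After median centring the first was called lower and 1 of the 5 rises lost its call. Of the rarest, RRTF1 rose to 0.922 FPKM at 43 °C, against 0.160 FPKM at 23 °C, and RAP2.11 to 0.675 FPKM at 43 °C, against 0.0800 FPKM at 23 °C. Over all 66 transcripts of family loci 27 rose (40.9%) and 11 fell (16.7%).

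Other large families of transcription factors gave different counts. Of 47 WRKY transcripts 11 rose (23.4%) and 19 fell (40.4%), and of 39 NAC transcripts 9 rose (23.1%) and 7 fell (17.9%). The shares of all transcripts were 20.7% higher and 17.8% lower. Median log2 fold changes in the authors' deposited table were -0.37 for WRKY and -0.04 for NAC, against 0.53 for the AP2/ERF members. Whether the families differ was not tested.

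Known partners of the members were read from 6 lists of Arabidopsis genes, each gene by its most abundant transcript. For comparison, 20.7% of all transcripts were called higher and 17.8% lower. Of all transcripts with a mean of at least 5 FPKM, 26.2% were called higher and 35.2% lower. Whether a list differs from these shares was not tested. Upstream of the ERF factors, EIN3, the ethylene transcription factor that activates ERF1 in Arabidopsis, fell to 60.5 FPKM at 43 °C, against 115 FPKM at 23 °C. EBF1, which marks EIN3 for degradation, fell to 28.9 FPKM at 43 °C, against 50.9 FPKM at 23 °C. EIN2 (17.5 FPKM at 43 °C against 18.7 FPKM at 23 °C) and EBF2 (1.67 FPKM at 43 °C against 0.958 FPKM at 23 °C) did not pass, and EIN2 was called lower after median centring.

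Among defence genes known as ERF targets, PR4 had 4.82 FPKM at 43 °C against 179 FPKM at 23 °C, 37.1-fold lower. OSM34, an osmotin, had 3.04 FPKM at 43 °C against 113 FPKM at 23 °C, and its 5 other transcripts fell too. CHI-B, a basic chitinase listed as ATHCHIB, rose and was listed at 77.7 FPKM at 43 °C and at 0 at 23 °C. The matched targets thus moved in both directions. Over the whole list, upstream genes and targets together, 7 genes had a match, with 1 rise and 4 falls.

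Of 7 matched regulators above the CBF factors, 1 rose, 5 fell and 1 did not pass, but with equal totals 2 rose and 3 fell. PIF7, a light and temperature factor that represses CBF genes in Arabidopsis, fell to 32.2 FPKM at 43 °C, against 80.5 FPKM at 23 °C. ICE1, an activator of CBF genes, fell to 13.9 FPKM at 43 °C, against 17.2 FPKM at 23 °C, and lost its call with equal totals. AT5G64220 lost its call likewise. It counts as fallen by a transcript with 0.702 FPKM at 43 °C against 1.79 FPKM at 23 °C, although 6 of its 10 other transcripts rose and all 11 summed to 7.36 FPKM at 43 °C against 4.77 FPKM at 23 °C. CAMTA1, listed as EICBP.B, fell to 24.7 FPKM at 43 °C, against 36.3 FPKM at 23 °C. MYB15 fell to 3.22 FPKM at 43 °C, against 9.85 FPKM at 23 °C, 3.06-fold lower, and its other transcript fell too. The kinase OST1 rose to 43.6 FPKM at 43 °C, against 30.9 FPKM at 23 °C, while 2 of its other transcripts fell. Summed, its 4 transcripts had 86.8 FPKM at 43 °C against 87.1 FPKM at 23 °C. HOS1 did not pass at 10.8 FPKM at 43 °C against 9.52 FPKM at 23 °C, and passed as higher with equal totals.

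Of the 13 cold-regulated target genes on the list 4 had a match, of which 1 rose, 1 fell and 2 did not pass. ERD10, a dehydrin listed as LTI29, rose to 54.6 FPKM at 43 °C, against 37.8 FPKM at 23 °C, and lost its call after median centring. ZAT10, a zinc finger repressor listed as STZ, fell to 28.6 FPKM at 43 °C, against 73.4 FPKM at 23 °C. COR47 (0.4475 FPKM at 43 °C against 1.2 FPKM at 23 °C) and ZAT12 (0.865 FPKM at 43 °C against 1.34 FPKM at 23 °C) did not pass.

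Of 9 matched DREB2A regulators and targets, 4 rose, 1 fell and 4 did not pass, and DRIP2 is also a member above. HSP18.2, a small heat shock protein, rose to 49.1 FPKM at 43 °C, against 20.5 FPKM at 23 °C, and all 4 of its transcripts rose. NF-YC10, a partner of DREB2A, rose to 9.72 FPKM at 43 °C, against 5.57 FPKM at 23 °C. The galactinol synthase AtGolS1 rose to 10.04 FPKM at 43 °C, against 3.94 FPKM at 23 °C. GRF7, a repressor of DREB2A, fell in its main transcript to 6.95 FPKM at 43 °C, against 13.5 FPKM at 23 °C. Of its 7 other transcripts 1 rose and 6 did not pass, and all 8 summed to 22.2 FPKM at 43 °C against 28.6 FPKM at 23 °C. HSFA1A, listed as HSF1, did not pass at 6.19 FPKM at 43 °C against 5.28 FPKM at 23 °C, nor did BPM2 in its main transcript at 26.2 FPKM at 43 °C against 25.2 FPKM at 23 °C. A rarer BPM2 transcript fell, with 2.64 FPKM at 43 °C against 9.73 FPKM at 23 °C. Summed, BPM2 had 31.5 FPKM at 43 °C against 37.7 FPKM at 23 °C. HSFA3, a heat shock factor that DREB2C activates in Arabidopsis, did not pass in its main transcript at 3.99 FPKM at 43 °C against 3.31 FPKM at 23 °C. Of its 10 rarer transcripts 4 rose, each under 1 FPKM at 43 °C. The main transcripts of BPM2 and HSFA3 passed as higher with equal totals.

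Of 11 matched genes for the oxygen-dependent control of group VII factors and their hypoxia targets, 5 rose, 2 fell and 4 did not pass. After median centring 2 of the 5 rises (SUS1 and SUS4) remained, and LBD41, PRT6 and AT5G15120 lost their calls. SUS1 and SUS4, sucrose synthases, rose to 61.0 and 66.8 FPKM at 43 °C, against 21.5 and 29.8 FPKM at 23 °C. ADH1, alcohol dehydrogenase, fell to 39.3 FPKM at 43 °C, against 57.4 FPKM at 23 °C. ACBP1, which in Arabidopsis holds group VII factors at membranes, fell to 16.3 FPKM at 43 °C, against 24.2 FPKM at 23 °C. PRT6, the ligase that marks them for degradation, counts as risen by a transcript with 14.1 FPKM at 43 °C against 11.1 FPKM at 23 °C. Its second transcript fell, with 4.89 FPKM at 43 °C against 17.8 FPKM at 23 °C. Summed, PRT6 had 19.0 FPKM at 43 °C against 28.9 FPKM at 23 °C. ATE1, which prepares group VII factors for that ligase, did not pass at 8.57 FPKM at 43 °C against 9.68 FPKM at 23 °C. A pyruvate decarboxylase (AT4G33070) did not pass at 25.3 FPKM at 43 °C against 22.8 FPKM at 23 °C, and passed as higher with equal totals.

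Of 7 matched WRI1 targets, 3 rose, 3 fell and 1 did not pass. The pyruvate kinase subunit PKP-ALPHA rose to 57.7 FPKM at 43 °C, against 32.0 FPKM at 23 °C, and ENO1, an enolase, to 19.4 FPKM at 43 °C, against 10.2 FPKM at 23 °C. The enoyl reductase MOD1 rose to 48.8 FPKM at 43 °C, against 36.0 FPKM at 23 °C. The pyruvate dehydrogenase subunit PDH-E1 ALPHA fell to 31.1 FPKM at 43 °C, against 46.3 FPKM at 23 °C, and PKP-BETA1 to 6.75 FPKM at 43 °C, against 10.3 FPKM at 23 °C. BCCP1 (CAC1), a carboxylase subunit, fell to 32.9 FPKM at 43 °C, against 43.7 FPKM at 23 °C, and lost its call with equal totals. KASI did not pass at 35.7 FPKM at 43 °C against 36.2 FPKM at 23 °C, and passed as higher with equal totals. The table lists both PKP-ALPHA (AT3G22960) and PKP-BETA1 (AT5G52920) first as PKP1. With equal totals the list had 4 rises and 2 falls.

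**Figure D4:**
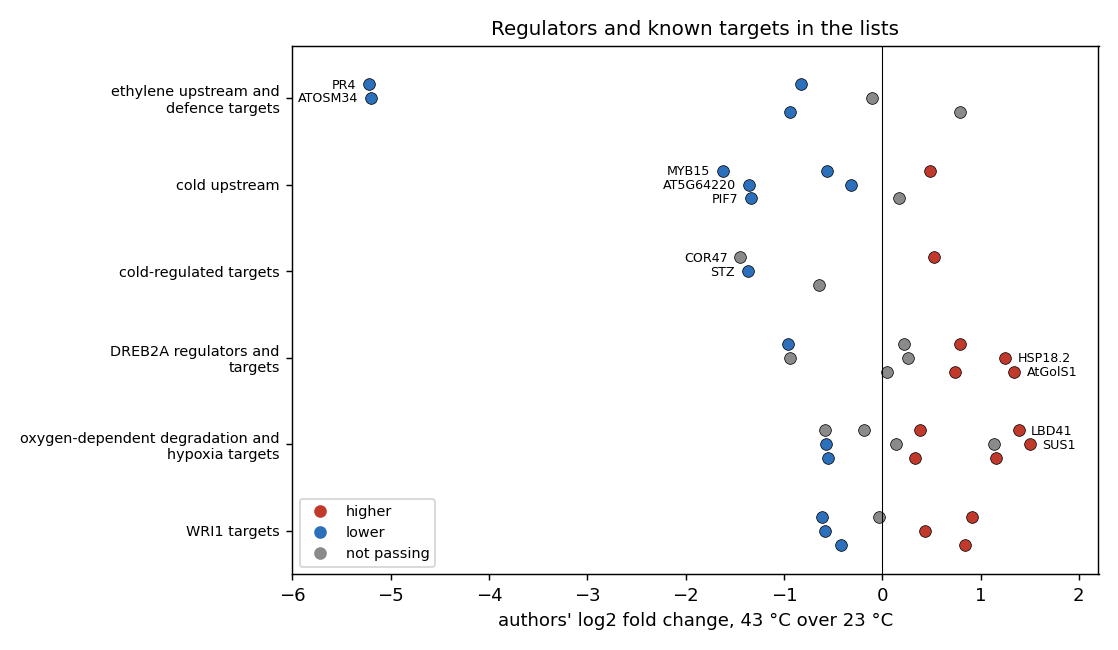
Authors' log2 fold change of 43 °C over 23 °C for the genes of the 6 lists, each by its most abundant transcript, red where higher, blue where lower and grey where the adjusted p was not below 0.05. Genes listed at 0 FPKM at a temperature (CHI-B) are not drawn, vertical offsets within a list only separate points, and PR4 and OSM34 lie below -5.

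Weighted by transcript length, the FPKM columns sum to unequal totals, 909555 at 43 °C and 1084419 at 23 °C. With equal totals all 17 rises and all 7 falls of the members kept their calls and 6 more members passed as higher. The log2 values of HRE2, DEAR2, the first AP2 transcript and the TINY2 transcript of 570 bases turned from negative to positive without passing.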

How the data were processed

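Leaf RNA of Atriplex lentiformis was sequenced in 8 libraries, 4 per temperature. Groups came from the sample titles, and the series' design text calls the libraries biological replicates. The submitters' processing notes name CASAVA 1.8.2 and Bowtie2 without a role. For the assembler, the counting tool and the test, the sources used here name nothing. Per the file headers, the deposited FPKM values are fragment counts scaled to length and depth. Each is a whole multiple of 0.0025 (tolerance 1e-06), which fits a mean over 4 libraries of values rounded to 2 decimals, so they were read as the authors' means. The log2 fold change, the p-value and the FDR are the authors' own, per the file headers. The FDR equalled a Benjamini-Hochberg adjustment over all transcripts to within 3.2e-07. The E value of each BLASTx match to TAIR10, a score of match quality, is as deposited. Depth per library is unknown, and the sources used here do not say what spread the authors' p-values measure.

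Because the table holds means, no test between groups was run, although limma had been planned for single libraries. Calls are the authors' adjusted p at 0.05. Counts, sums, ratios and medians were computed with Python 3.11.15, pandas 2.3.3 and SciPy 1.17.1, and no filter on low values was used. For scaled values, calls were approximated from a standard error, taken as the one with which a z test yields the authors' p. The arithmetic of this step was checked on simulated data that were themselves drawn for a z test. That check cannot show whether the authors' p-values behave as those of a z test, so calls on scaled values are approximate. Members and lists were chosen with earlier results of these data known. All member loci are described. Partner genes follow a rule of up to 3 risen, 3 fallen and 2 not passing per list, the most abundant first. Outside that rule, HSFA3, EBF1, MYB15, AT5G64220, LBD41 and AT5G15120 were added after their values were seen. No sequence was read, since the table holds none.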

Additional observations from a re-analysis of the deposited data

How the results depend on the processing

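The number of member transcripts called was 17 higher and 7 lower, and across the settings tried it stayed within 1.5 times of that except where the set of transcripts itself changed. With a minimum mean of 5 FPKM, 18 members were left, with 8 higher, 5 lower and a median log2 fold change of 0.012. With the list of family loci in place of the description, 27 were higher and 11 lower of 66. A threshold of 0.01 kept 12 of the 17 rises and all 7 falls, and median centring kept 14 and 7, losing DREB2C, ERF9 and the second ANT transcript. Equal totals turned the log2 value of HRE2 to 0.24, of the first AP2 transcript to 0.23, of DEAR2 to 0.18 and of the TINY2 transcript of 570 bases to 0.041. Median centring turned that of the second AP2 transcript to -0.047. None of these 5 had passed as deposited, and none passed after its sign turned. Settings with a pseudocount could not test the counts. The constant is added to both FPKM values, so it cannot change which is larger, and the authors' adjusted p was kept. Leaving out transcripts listed at 0 removed no member, so that setting could not change a count either. For loci by summed FPKM, counts ranged from 14 to 24 higher and from 5 to 8 lower. Only means per temperature were analysed, so no replicate could be left out in turn. No paired analysis was possible because the columns carry no replicate numbers. Depth is unknown. Of the 13 rarest members, with a mean under 1 FPKM, 12 did not pass, although their median log2 fold change in the authors' deposited table was 0.80.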
